A study of Rattus norvegicus with 4 samples.

Results

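The liver breaks down most amino acids that are not used for protein, and the enzymes examined here stand at the entry or the exit of several of those routes. Tdo2, tryptophan 2,3-dioxygenase, opens the tryptophan ring and starts the kynurenine pathway. Hpd, Hgd and Fah carry out late steps of tyrosine breakdown, which ends in fumarate and acetoacetate. Hal, histidine ammonia-lyase, starts histidine breakdown, and Sds, serine dehydratase, turns serine into pyruvate. Got1, the cytosolic aspartate aminotransferase, moves amino groups between aspartate and glutamate, and Gls2, the liver form of glutaminase, releases ammonia from glutamine. Glucocorticoids, glucagon, fasting and dietary protein are known to raise several of these enzymes in rat liver.

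The 8 genes were taken from the array by symbol, and every probe set annotated with 1 of these symbols alone was used. Of these, 7 had a probe set and Hgd had none with its symbol alone. Each of the 7 had exactly 1, so 7 of the 15923 probe sets were members. Hgd is therefore not analysed here. The symbol rule itself used no measured value. The samples were the livers of 4 male Sprague Dawley rats, 10 to 12 weeks old, that received no treatment and were fed freely, each measured on its own Affymetrix array. All 4 form 1 group of control livers, so no groups were compared, and the values describe the level of each gene and how far the rats lay from one another. With 1 array per rat, a difference between animals cannot be told apart from a difference between arrays.

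Values are log2 signals, and higher means brighter. Signal also depends on the probes of each probe set, so values of different genes are not relative amounts of transcript. A gene was called above background when its mean over the 4 rats exceeded 8.86, the 95th percentile of 86 probe sets for 61 genes typical of other tissues (brain, skeletal and heart muscle, testis, eye). That level leans on Myh1, a muscle myosin with 4 of 5 probe sets above it, and it was 8.24 without Myh1. All 6 measured hepatocyte markers were above background, with albumin (Alb) at 15.06 ± 0.02 (SD, n = 4). None of the 5 kidney tubule markers was, which bears on these genes because kidney also makes several of the enzymes. Of the 5, only Lrp2, at 8.30, exceeded the level of 8.24 without Myh1. No pair of arrays held identical values, and correlations between arrays over all probe sets lay between 0.993 and 0.995.

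Of the 7 measured genes, 6 were above background, against 24.6% of all 10412 genes, and Sds was not. Without Myh1 in the background list all 7 were, but then so were 50.8% of all genes. Spread between rats differed from gene to gene. Sds and Got1 differed most between rats, with the same rat highest and the same rat lowest for both. The 4 values of Tdo2 coincided, so its spread between rats is not known. Hpd had an SD of 0.01, which became 0.037 after quantile normalization. An SD above the median SD of genes above background, which 50% of those genes have by construction, was found for 5 of the 7. Sds counts among the 5 although it is not above background itself. That median includes 682 genes whose 4 values span less than 0.001 log2 units. With such genes left out, 4 of the 7 exceeded it and Hal no longer did.

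**Figure D1:**
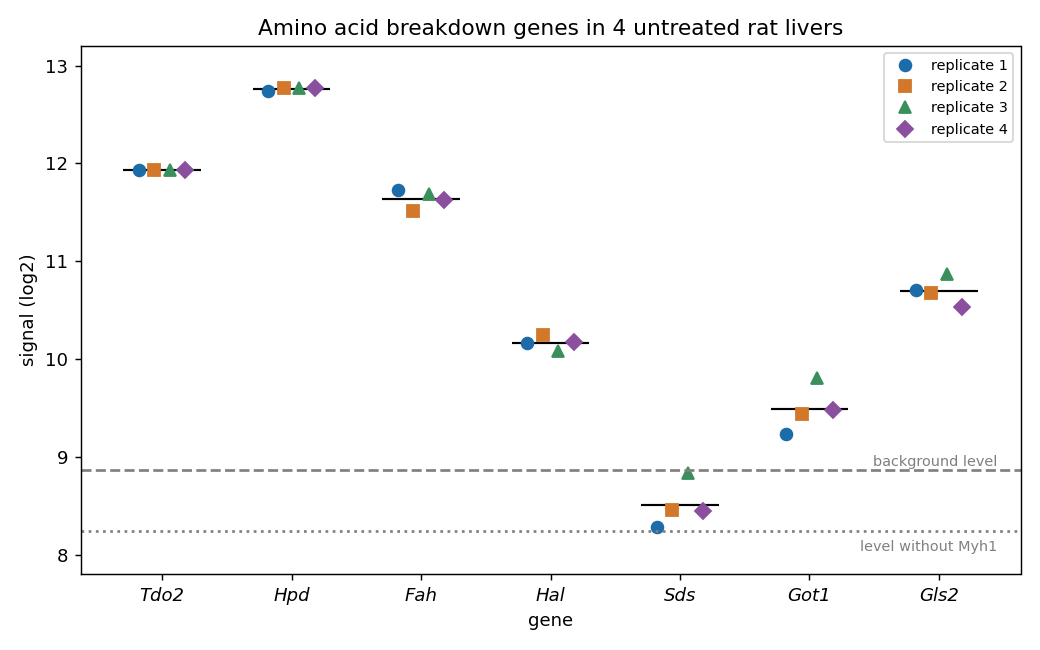
Log2 signal (vertical axis) of the 7 measured amino acid breakdown genes (horizontal axis) in each of 4 rats, with the mean as a black line; the dashed and dotted lines are the background level of 8.86 and its value of 8.24 without Myh1. Replicate 3 stands highest for Sds, Got1 and Gls2, while the 4 points of Tdo2 coincide.

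For tryptophan, Tdo2 had a signal of 11.93 in each of the 4 rats, at the 98.6th percentile of all genes by mean signal. The 4 values differed by 2.4e-07 log2 units at most. Probe sets whose 4 values span less than 0.001 are called flat here, and they made up 26.6% of the genes above background. The SD of Tdo2 is thus no measure of the animals, and why its values coincide was not tested. After quantile normalization of the arrays the SD of Tdo2 was 0.023.

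In tyrosine breakdown, Hpd, which makes homogentisate, had signals of 12.74, 12.77, 12.77 and 12.77 in replicates 1 to 4. Its mean was 12.76 ± 0.01 (SD, n = 4), and its SD was larger than that of only 4.51% of the 1883 genes above background that were not flat. After quantile normalization the SD of Hpd was 0.037, at the 42.0th percentile of such genes. Fah, fumarylacetoacetate hydrolase, had 11.73, 11.52, 11.69 and 11.63, with a mean of 11.64 ± 0.09 (SD, n = 4). Its lowest value was in replicate 2 and its highest in replicate 1, a ratio of 1.16. These 2 members thus had their lowest signal in different rats, although Hpd spanned only 0.031 log2 units.

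For histidine, Hal had signals of 10.17, 10.24, 10.08 and 10.17 in replicates 1 to 4, with a mean of 10.17 ± 0.07 (SD, n = 4). Replicate 3 was lowest for Hal, and the highest rat exceeded it by a factor of 1.12. Its SD lay at the 47.4th percentile of non-flat genes above background.

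For glutamine, Gls2 had signals of 10.71, 10.68, 10.87 and 10.53, with a mean of 10.70 ± 0.14 (SD, n = 4). Replicate 3 was highest and replicate 4 lowest, with a ratio of 1.26 between them. The SD of Gls2 exceeded that of 78.1% of non-flat genes above background.

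Sds had signals of 8.29, 8.45, 8.84 and 8.45 in replicates 1 to 4, with a mean of 8.51 ± 0.23 (SD, n = 4). Replicate 3 stood 1.46 times above replicate 1, and replicates 2 and 4 were level with each other between them. No single rat reached the background level of 8.86 for Sds. Its 1 probe set belongs to a class that can read several transcripts of the same gene.

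Got1 had signals of 9.23, 9.44, 9.81 and 9.48, with a mean of 9.49 ± 0.24 (SD, n = 4). The same 2 rats stood at the ends, replicate 3 being 1.50 times above replicate 1. The SDs of Sds and Got1 lay at the 90.4th and 90.8th percentiles of non-flat genes above background, of which 12.6% had an SD of at least 0.2. Much of this rested on replicate 3, without which the SD was 0.095 for Sds and 0.13 for Got1, at the 65.5th and 78.5th percentiles. Single rats set other SDs too: that of Hpd was 0.0021 without replicate 1, that of Fah 0.050 without replicate 2 and that of Hal 0.043 without replicate 3.

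**Figure D2:**
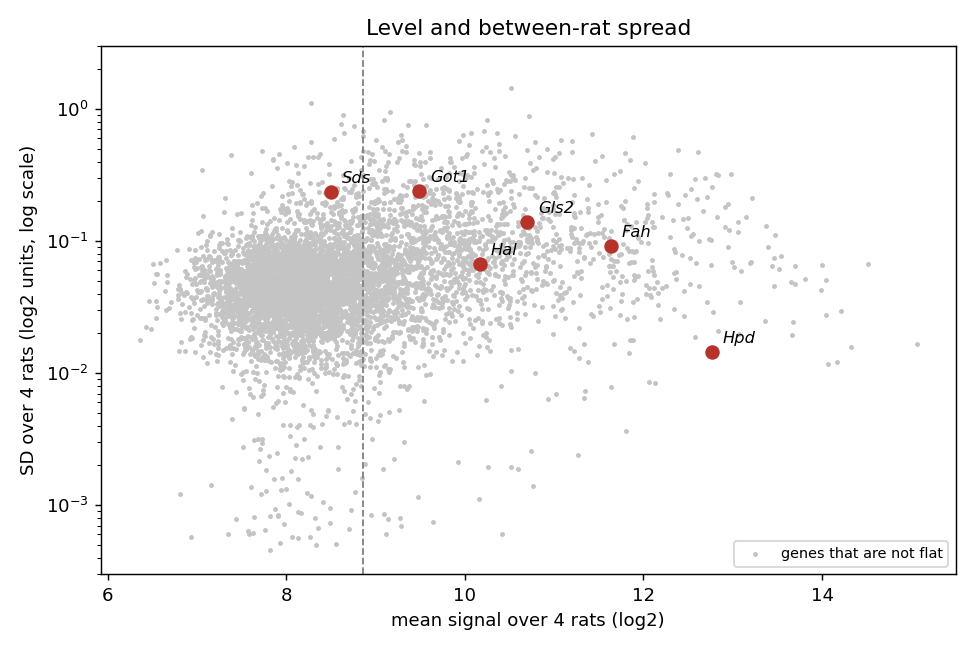
SD over 4 rats (vertical axis, log2 units on a log scale) against mean log2 signal (horizontal axis) for genes that are not flat, in grey, with the 6 non-flat members in red; the dashed line is the background level. Sds and Got1 have SDs of 0.23 and 0.24, at the 90.4th and 90.8th percentiles of non-flat genes above background. Hpd lies low with 0.01. Tdo2 is flat and is not drawn.

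The deviations of Sds from its own mean were -0.22, -0.05, 0.33 and -0.06 in replicates 1 to 4, and those of Got1 were -0.26, -0.05, 0.32 and -0.01. The pair differed by at most 0.043 log2 units in any rat. Among the 1883 non-flat genes above background, Got1 was the gene whose deviations were most like those of Sds, by this largest difference. Next came Acox2, a peroxisomal oxidase of bile acid precursors (0.063), and Cldn2, a tight junction protein (0.070). The genes most like Got1, among those above background, were Acox2 (0.056), the ubiquitin-like Ubl5 (0.061) and Acly, ATP citrate lyase (0.063). Within 0.1 log2 units of each member there were 10 genes, or 0.531% of those compared. The 4 values come from shared arrays and make a short pattern, so the likeness is a description. Neither gene has another probe set to repeat the reading. Got1 remained the nearest to Sds after quantile normalization, but ranked 117th of 1858 genes without replicate 3, 6th without replicate 1, 4th without replicate 2 and 2nd without replicate 4.

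Of the 6 non-flat members, 3 were highest in replicate 3 (Sds, Got1 and Gls2), against 36.7% of non-flat genes above background. Hpd, Sds and Got1 were lowest in replicate 1, as were 31.8% of those genes. Both ends applied to Sds and Got1, and to 13.1% of non-flat genes above background. Hal ran the other way in replicate 3.

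Markers of other cell types also moved between these livers, and their part in the values of Sds and Got1 was not tested. In whole liver, fewer cells of a type and less RNA per cell cannot be told apart. The 6 stellate cell and fibroblast markers, 2 of them above background, had mean log2 signals of 8.81, 8.98, 8.51 and 8.99 in replicates 1 to 4. The 4 measured Kupffer cell markers, all above background, had 9.80, 10.13, 10.02 and 9.88. The stellate mean was thus lowest in replicate 3, where Sds and Got1 were highest. In that rat Col1a1, Col3a1, Dcn and Reln deviated by -0.78, -0.60, -0.27 and -0.22 from their own means. Lrat and Des, whose values coincided across the rats, did not contribute. Only Col3a1 and Reln were above background. The Kupffer mean was lowest in replicate 1, as were 2 of the 4 markers (Cd68 and C1qa), while Clec4f was lowest in replicate 4 and C1qb in replicate 3. The 6 hepatocyte markers had 13.96, 14.05, 14.04 and 14.04. Their lower mean in replicate 1 came from Apoa1, which deviated by -0.48 from its own mean there. The other hepatocyte markers deviated by -0.018 (Serpina1) to 0.091 (Fgb) in that rat. The 3 endothelial markers, 1 of them above background, had 8.76, 8.74, 8.78 and 8.82. None of the 3 measured bile duct markers (Krt19, Krt7 and Epcam) was above background.

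The genes around the members were read from 8 lists by route, 81 genes in all, of which 68 had a probe set. Of these 68, 53 were above background, or 77.9%, against 24.6% of all genes. The same 24.6% stands beside the counts by route below. Of the 53, 12 were flat, or 22.6%, near the 26.6% among all genes above background. At the 98th percentile of the background list 21 were above it, against 4.87% of all genes.

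**Figure D3:**
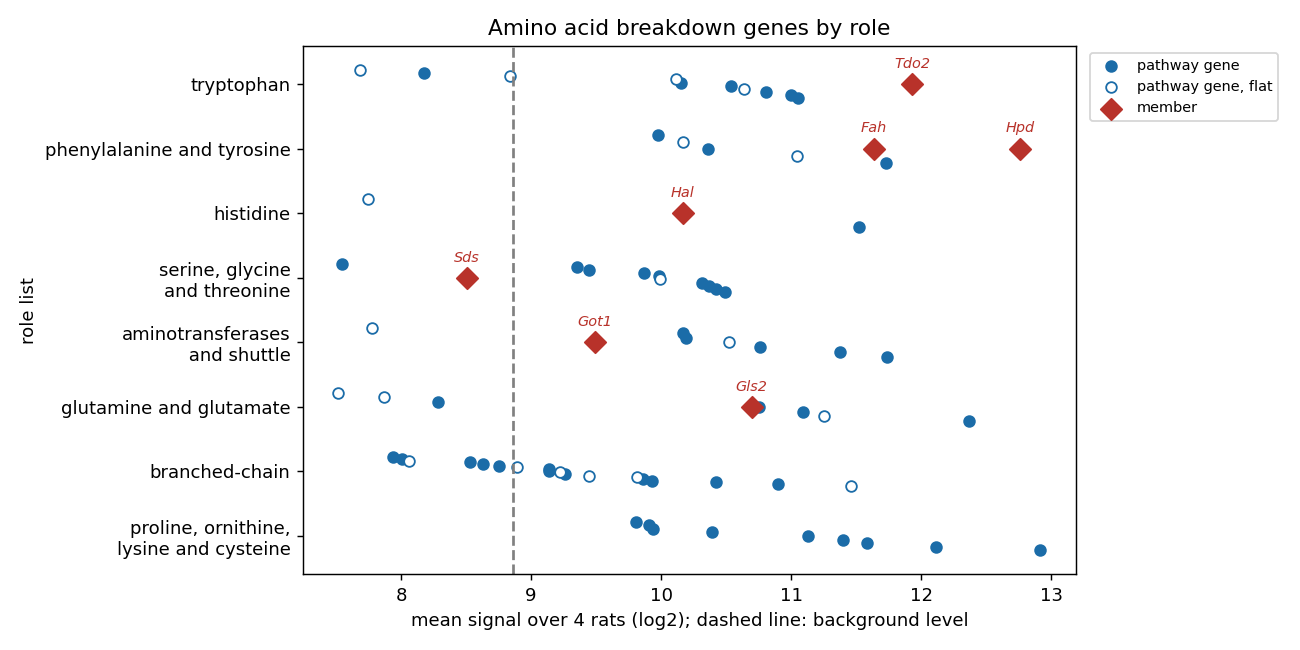
Mean log2 signal over 4 rats (horizontal axis) of the members (red diamonds) and of the other amino acid breakdown genes (blue circles, open where flat) by route (vertical axis); the dashed line is the background level of 8.86. Most circles, 53 of 68, lie to the right of the line, and Sds lies to its left; signals of different genes are not relative amounts.

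Among 10 measured tryptophan genes, 7 were above background. Kynu, kynureninase, had the highest mean, and it had 11.45, 10.68, 11.46 and 10.61 in replicates 1 to 4, a mean of 11.05 ± 0.47 (SD, n = 4). It was high in replicates 1 and 3 and low in replicates 2 and 4. Tdo2, which precedes it, was flat, so the spread of Kynu cannot be set against that of Tdo2. Gcdh, glutaryl-CoA dehydrogenase, was at 11.00 ± 0.33 (SD, n = 4).

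All 5 measured genes of the phenylalanine and tyrosine list were above background. Tat, tyrosine aminotransferase, which precedes Hpd, had signals of 9.52, 10.53, 11.10 and 10.30 in replicates 1 to 4. Its SD of 0.66 was the largest of this list, and its highest and lowest rats were those of Sds and Got1. Hpd, the next enzyme of the route, varied by 0.031 log2 units over the same livers and Tat by 1.58. Qdpr, which regenerates the cofactor of phenylalanine hydroxylase, was at 11.73 ± 0.08 (SD, n = 4). Gstz1, the isomerase between Hgd and Fah, was flat at 11.04.

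In the histidine list 1 of 2 measured genes was above background. This was Ftcd, which acts near the end of the route and takes the one-carbon unit to folate, at 11.57, 11.36, 11.72 and 11.45. Replicate 3 was its highest rat, whereas Hal was lowest there. Hdc, which makes histamine, was flat at 7.74, below background.

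Of 10 measured serine, glycine and threonine genes, 9 were above background, although Sds was not. Gcsh and Gldc, proteins of the glycine cleavage system, were at 10.49 ± 0.10 and 9.44 ± 0.29 (SD, n = 4). Dmgdh, dimethylglycine dehydrogenase, was at 10.42 ± 0.07 (SD, n = 4). Gldc was highest in replicate 2, at 9.79, and lowest in replicate 1, at 9.14.

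Aminotransferases and the malate-aspartate shuttle had 6 of 7 genes above background. Got2, the mitochondrial partner of Got1, had 11.77, 11.70, 11.79 and 11.69, with an SD of 0.05 against 0.24 for Got1. Its second probe set had a mean of 7.41, below background. Mdh1, cytosolic malate dehydrogenase, was at 11.37 ± 0.21 (SD, n = 4), highest in replicate 1. Its second probe set was below background at 8.83. Gpt, alanine aminotransferase, had 10.08, 9.61, 10.77 and 10.31, so it shared its highest rat with Got1 but was lowest in replicate 2.

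In the glutamine and glutamate list 4 of 7 genes were above background. Glud1, glutamate dehydrogenase, was at 12.37 ± 0.06 (SD, n = 4). Its second probe set was at 11.36 ± 0.16 and highest in replicate 4. The amino acid carrier Slc38a4 was flat at 11.25. Glul, glutamine synthetase, which runs the reaction opposite to Gls2, was at 10.75 ± 0.25 (SD, n = 4). All 3 probe sets of Glul were highest in replicate 3, at 11.07, 10.93 and 10.56. Gls2 was highest in the same rat.

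Branched-chain genes had 12 of 18 above background, 5 of them flat. Hibadh, of valine breakdown, was flat at 11.46. Aldh6a1, also of valine breakdown, was at 10.90 ± 0.06, with a second probe set flat at 10.52, and Ivd, of leucine breakdown, at 9.93 ± 0.10 (SD, n = 4). The list for proline, ornithine, lysine and cysteine had 9 of 9 above background. Cdo1, cysteine dioxygenase, was at 12.92 ± 0.13 and Aldh7a1, of lysine breakdown, at 12.12 ± 0.23 (SD, n = 4). Oat, ornithine aminotransferase, had 9.76, 10.39, 11.08 and 10.32 in replicates 1 to 4, again lowest in replicate 1 and highest in replicate 3.

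**Figure D4:**
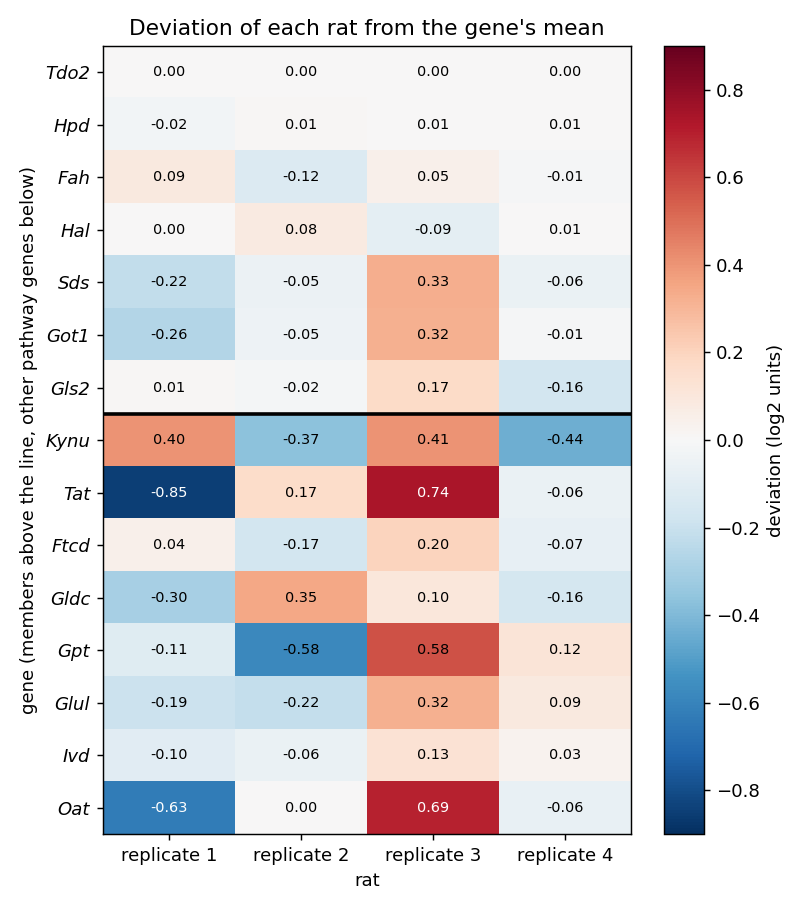
Deviation of each rat (columns) from a gene's mean in log2 units, for the 7 members above the line and, below it, the gene of each route with the largest SD above background; red is higher and blue lower than the mean. Sds, Got1, Tat and Oat are lowest in replicate 1 and highest in replicate 3, by -0.22, -0.26, -0.85 and -0.63 against 0.33, 0.32, 0.74 and 0.69. Ivd has the same order with smaller deviations, -0.099 against 0.13.

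Of the 41 non-flat pathway genes above background, 21 were highest in replicate 3 (51.2%, against 36.7% of all such genes) and 15 lowest in replicate 1 (36.6%, against 31.8%). Both applied to 11 of the 41, or 26.8%, against 13.1%. These were Kyat3, Gcdh, Tat, Sardh, Dmgdh, Dao, Ivd, Pccb, Mcee, Oat and Aldh7a1. Tat and Oat were chosen by their spread, and these shares describe 4 rats. The median SD was 0.084 for the 41 pathway genes and 0.070 for all 1883 such genes.

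Regulators known to act on genes of this kind had 6 of 17 measured members above background, where 24.6% of all genes were. Of these 6, 5 were highest in replicate 3, against 36.7% of non-flat genes above background, and 4 (Hnf4a, Cebpa, Foxa3 and Sgk1) were lowest in replicate 4, unlike Sds and Got1. Cebpb, a factor induced by glucocorticoids and cyclic AMP, had 9.67, 9.27, 9.84 and 9.66 in replicates 1 to 4. Foxa3, a liver forkhead factor, had 8.96, 9.31, 9.69 and 8.63. Hnf4a was at 9.67 ± 0.21, Cebpa at 8.99 ± 0.19 and Gcgr, the glucagon receptor, at 9.44 ± 0.04 (SD, n = 4). Of these 5, only Gcgr was also lowest in replicate 1, at 9.40 against 9.48 in replicate 3. Sgk1, a kinase gene induced by glucocorticoids, had 8.81, 10.23, 9.76 and 8.67 and was thus highest in replicate 2. Nr3c1, the glucocorticoid receptor, was at 8.84 and its targets Tsc22d3, Per1 and Fkbp5 at 8.71, 8.74 and 7.92, all below background by mean. Without Myh1 in the background list all of these but Fkbp5 were above it. Tsc22d3 had 8.42, 8.49, 8.89 and 9.03 in replicates 1 to 4, with an SD of 0.30. Its values in replicates 3 and 4 exceeded the background level. Tsc22d3 was lowest in replicate 1, as Sds and Got1 were, but highest in replicate 4. Fkbp5 was lowest in replicate 1 and Nr3c1 in replicate 2, and Per1 was flat.

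Promoter sequence is shown for the variable Got1 and for Tat and Oat, which had the same highest and lowest rats. It is also shown for Tdo2, which was flat, so that its spread between rats is not known. Tat and Oat were picked by their spread, and the promoters of the other pathway genes with that order were not looked up. Of the 8 genes, 6 had an entry in the RefSeq promoter table of the rat assembly GRCr8, and Sds and Hal had none. Each line gives the 250 bases before the annotated start, 5′ to 3′ on the gene's strand, and capitals mark CCAAT or its reverse, ATTGG, the motif bound by the factor NF-Y. The start used in these livers was not measured.
Got1, chr1:252329872-252330121, minus strand: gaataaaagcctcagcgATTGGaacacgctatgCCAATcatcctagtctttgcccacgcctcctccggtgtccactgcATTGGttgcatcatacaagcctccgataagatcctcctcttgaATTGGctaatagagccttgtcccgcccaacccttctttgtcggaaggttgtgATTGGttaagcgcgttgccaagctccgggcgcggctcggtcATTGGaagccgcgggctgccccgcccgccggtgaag
Tat, chr19:54856354-54856603, plus strand: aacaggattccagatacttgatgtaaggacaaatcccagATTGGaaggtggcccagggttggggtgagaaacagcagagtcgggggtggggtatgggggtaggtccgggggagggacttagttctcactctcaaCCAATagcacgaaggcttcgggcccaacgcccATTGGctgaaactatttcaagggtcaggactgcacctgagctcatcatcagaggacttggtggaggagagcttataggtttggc
Oat, chr1:196797755-196798004, minus strand: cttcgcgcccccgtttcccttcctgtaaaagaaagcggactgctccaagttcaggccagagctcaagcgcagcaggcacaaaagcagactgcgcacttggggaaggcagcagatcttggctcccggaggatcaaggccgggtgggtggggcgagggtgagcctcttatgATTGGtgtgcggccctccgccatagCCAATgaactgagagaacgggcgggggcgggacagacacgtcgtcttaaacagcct
Tdo2, chr2:169585587-169585836, minus strand: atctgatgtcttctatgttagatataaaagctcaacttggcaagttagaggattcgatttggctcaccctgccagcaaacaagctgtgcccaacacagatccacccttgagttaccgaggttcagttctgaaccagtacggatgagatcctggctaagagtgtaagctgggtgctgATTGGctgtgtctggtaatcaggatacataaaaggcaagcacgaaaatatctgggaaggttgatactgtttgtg

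Counted on both strands, CCAAT occurred 6 times before Got1, with first bases from -233 to -36 relative to the start. It occurred 3 times before Tat, 2 times before Oat and 1 time before Tdo2. Of 33469 promoter windows of the same length, 34.0% held at least 1 match, 2.52% at least 3 and 0.0329% at least 6. Hpd and Fah had none, Hgd had 1, and of the 2 entries for Gls2 1 held a match. TATAAA, present in 12.9% of windows, was found before Tdo2 at -228 and before none of the others searched. TGTTCT, a half-site of the glucocorticoid receptor, present in 17.5%, and TGACGTCA, the cyclic AMP response element, in 1.59%, were in none of the windows of these 6 members, Tat and Oat. A match is only a run of letters in this window.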

How the data were processed

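Liver RNA of 4 control rats was measured on 4 arrays. The deposited values are log2 signals; the submitters' processing notes list GCRMA, RMA, affy 1.12.2 and R 2.4.1 without saying which did what, so the method behind the values is not given in the sources used here. Array medians all lay at 8.11. The arrays shared 1 day, 1 lot and 1 station. They were run on 4 different modules, so rat and module cannot be told apart. The scanner settings name RAE230A, the labels' protocol another version.

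Probe sets were named from the platform annotation, 12789 having 1 symbol, and updated by gene number to GRCr8 (12754 matched). Each gene was represented by its brightest probe set. Since the design has 1 group, no test was run; levels, SDs, percentiles and counts are descriptions, whose precision the number of arrays limits. Background was set by 70 listed genes, 61 with a probe set. Likeness is the largest absolute difference of deviations over the 4 rats.

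The members and lists were chosen with earlier results of these data known. Named genes were the members, the 2 highest-signal genes and the most variable gene above background of each route list, and for members with an SD of at least 0.2 the 3 nearest genes. Alternatives covered the background level, the probe set, scaling, flat probe sets, the measure of spread and leaving out each rat. Functions were checked on simulated data. Python 3.11.15, numpy 2.4.6 and pandas 2.3.3 were used.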

Additional observations from a re-analysis of the deposited data

Results flagged for a closer look

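Among 34 sets of 4 values, those of the non-flat named genes, 1 had a rat far from the other 3 relative to the whole range, where chance gives about 5%. It was Hpd, with 12.74 in replicate 1 against 12.77 in each of the others. The gap is small on an absolute scale, 0.031 log2 units over the whole range. After quantile normalization replicates 1 and 4 were both at 12.74 and the SD was 0.037, so the rat no longer stood apart.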

How the results depend on the processing

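The count of members above background was 6 and lay between 4 (98th percentile of the background list) and 7 (90th percentile, or without Myh1) over 11 alternatives, and was 6 in each setting that left out 1 rat. The count of other amino acid breakdown genes above background was 53, and it lay between 51 and 58 in 10 of 11 alternatives; at the 98th percentile it was 21. There the level was 10.59 and 507 of 10412 genes were above it, against 2565 with the 95th percentile and 5309 with the 90th. Members with an SD above the median of genes above background numbered 5, and 4 or 5 under 10 alternatives; Sds has no value once probe sets with an s, x or a suffix are left out. Of 55 alternative SDs of single members 3 rose by more than the SD itself: Tdo2 to 0.023 (quantile) and 0.0022 (median centring) and Hpd to 0.037 (quantile). Of 24 SDs of non-flat members without 1 rat, 5 changed by over 1.5 times, all falls: Hpd to 0.0021 without replicate 1, Fah to 0.050 without replicate 2, and Hal to 0.043, Sds to 0.095 and Got1 to 0.13 without replicate 3. Of 55 alternative means 1 was marked as moved, that of Tdo2, from 11.931 to 11.935 after quantile normalization. Its SD was 1.1e-07 before, so even this small change exceeded it. No paired analysis was possible because there is 1 group, and a block for the scan day was not run because there was 1 day. The likeness settings were chosen after seeing the data.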

Other observations

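Enzymes of amino acid breakdown are known to be divided between the zones of the liver lobule, and Hal, Sds and Gls2 are known as genes of its portal side. Whole liver does not resolve zones. All 6 measured periportal markers were above background, with mean log2 signals of 11.51, 11.45, 11.61 and 11.53 in replicates 1 to 4. Of 8 measured pericentral markers, 6 were, with mean log2 signals of 10.52, 10.40, 10.70 and 10.57 over all 8. Both means were lowest in replicate 2, whereas Sds was lowest in replicate 1 and Hal in replicate 3. The pericentral list holds Glul and Oat, which belong to the route lists too. Without them the other 6 had means of 10.64, 10.38, 10.57 and 10.57, highest in replicate 1. Of the 5 non-flat periportal markers, 2 were highest in replicate 3. Pck1, a periportal enzyme of glucose production that fasting raises, had 12.27, 12.44, 12.63 and 12.96 and was highest in replicate 4 but lowest in replicate 1, as Sds and Got1 were. Only Pck1 among the 5 non-flat periportal markers was lowest in replicate 1, and 3 were lowest in replicate 2. Ass1, of the urea cycle, had 13.02, 12.54, 13.19 and 12.60.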
